A study of Caenorhabditis briggsae with 16 samples.

Results

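In *C. briggsae*, 22 mature miRNA arms outside a list of families set aside by name fell at least 1.5-fold between 18 to 21 h and 30 to 33 h after plating. They were chosen by that fall, from the scaled counts of these same libraries, so the early to late ratio describes them and was not tested. Of the 372 arms in the table, 254 averaged 100 counts or more. Setting aside by name the Let-7 and Bantam families, 23 numbered Mir families, those with 4-digit numbers, rows given no family and second copies of a hairpin left 73. The 22 arms came from 21 hairpins of 18 families, and 15 carried no asterisk (called guide strands here) while 7 carried the asterisk that marks a passenger strand (miR*). Without the name filter, 99 of the 254 arms fell as far.

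A miRNA hairpin is cut by Drosha and Dicer into a duplex of a 5p and a 3p arm. An Argonaute protein keeps one arm as the guide, which finds target mRNAs through its seed, and the passenger is usually discarded, so that guides as a rule persist much longer than passengers. Many nematode miRNAs are made in particular cells, among them single neurons, and several families were duplicated in nematodes, which leaves paralogues with nearly the same sequence.

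Small RNAs were sequenced from whole wild-type animals of strain AF16, untreated, whose synchronized L1 larvae had been plated at 2000 worms per plate and held at 25°C. The 16 libraries are 1 for each hour from 18 to 33 h, with no replicates and no other genotype or treatment. Library totals over all arms were 9588599 to 15866144 counts. A scaled count is the deposited count divided by the total of its library and brought to the mean total of 12480503, so it is a share of the miRNA reads of that hour and not an amount per animal. In such whole-animal samples, fewer cells of a type and less RNA per cell cannot be told apart. Muscle and neuronal arms were present throughout, with at least 19770 counts of Cbr-Mir-1_3p and 388 of Cbr-Mir-124-P10_3p in every library. The 21 h library stood farthest from its neighbours, at a median absolute log2 distance of 0.25 against 0.065 to 0.162 for the others. Leaving it out of the early mean returned the same 22 arms.

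The early to late ratio ranged from 1.54 to 4.35 with a median of 1.74, against a median of 1.16 over the 73 eligible arms. With TMM or median-of-ratios factors in place of the totals, 13 or 9 of the 22 still met the rule. The ratio reached 2 in 6 arms, and 16 eligible arms were at least 1.5-fold higher in the late window than in the early one. The highest hour lay within 18 to 21 h for 19 of the 22 and the lowest within 30 to 33 h for 19. Values of the early and the late window overlapped in 2 arms, Cbr-Mir-315_5p and Cbr-Mir-277-P6a_5p*. The counts of highest, lowest and overlapping hours use the windows that chose the arms and follow largely from that choice. Shares over the other eligible arms were not computed for them. Together the 22 arms took 10.98% of all counts at 18 h, 7.52% at 26 h and 5.05% at 33 h. Most of this was Cbr-Mir-90-P1_3p. Without it the share began at 2.21%, was highest with 2.78% in the 21 h library, still reached 2.26% at 26 h and ended at 1.06%.

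**Figure D1:**
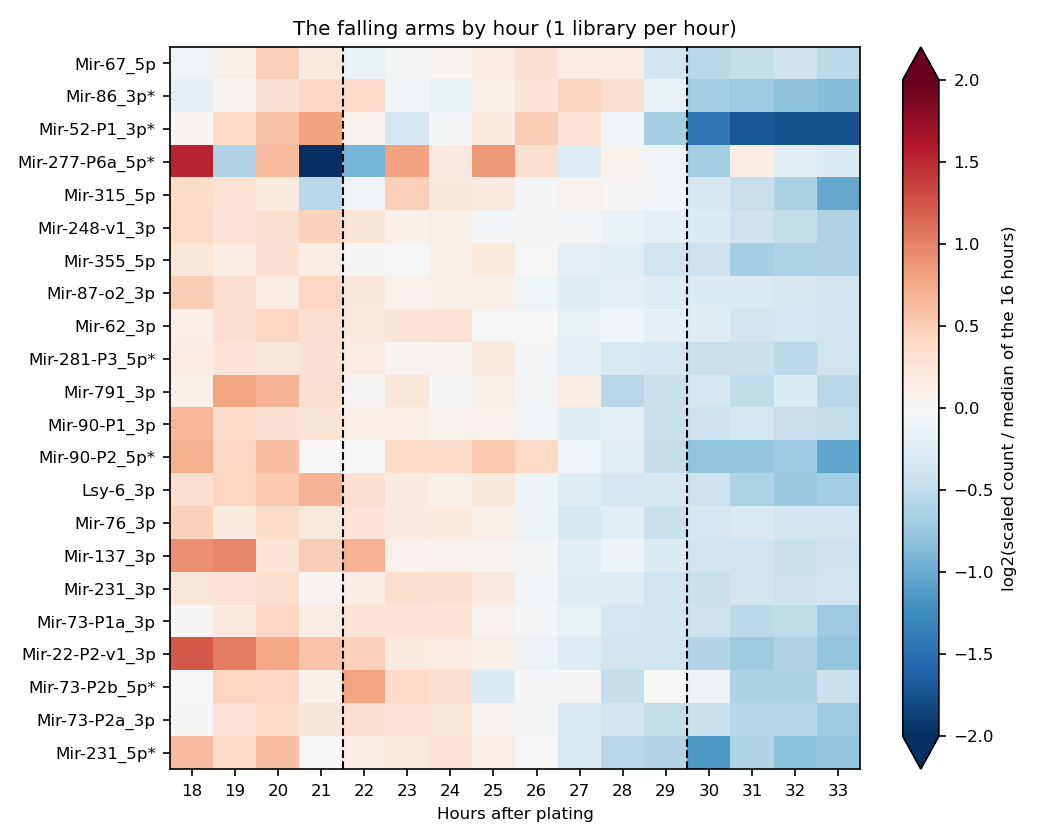
Scaled count of each of the 22 arms (rows, named without the Cbr- prefix) at each hour after plating (columns, 1 library each) as the log2 ratio to the median of that arm's 16 hours, with red above and blue below it. Dashed lines bound 22 to 29 h, the hours outside the early and late windows, and rows run from the most positive slope over those hours (top) to the most negative (bottom). Cbr-Mir-52-P1_3p* and Cbr-Mir-86_3p* show separate early and middle highs, whereas Cbr-Mir-22-P2-v1_3p passes from its highest value at 18 h to its lowest at 33 h.

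Whether the arms also fell outside the windows of the ratio was asked of the 8 libraries of 22 to 29 h, which had entered the choice only through the mean count, with edgeR's quasi-likelihood test of a linear slope per hour on the counts. Of the 313 arms tested, 29.4% were called falling at an adjusted p under 0.05. Of the 22 chosen arms, 14 were called falling, and 20 had a negative slope, as did 62.0% of all arms tested. Among guide strands 11 of 15 were called, and among passengers 3 of 7. Shares over all guides and all passengers were not computed, so no difference between the strands is read from these counts. Cbr-Mir-67_5p and Cbr-Mir-73-P2a_3p, counted here as guides for want of an asterisk, were each the less abundant arm of the hairpin. With 1 library per hour, the p-values of this test rest on the spread of the libraries about the line, and neighbouring hours are not independent. The 8 hours also lie between the windows that chose the arms, so a fall across them follows in part from the choice. The 29.4% is over all arms, whether or not they fell between those windows, and the excess over it was not separated from the choice. Under the library totals the median arm itself fell, with a slope of -0.037 log2 per h or -0.26 over the 7 h, so each slope is also given relative to that arm. The median slope of the 22 was -0.08 log2 per h, and 18 of them lay below the median arm. TMM factors and median-of-ratios factors set the median arm at -0.007 and -0.001 log2 per h, and then 10 and 8 of the 22 were called falling, against 58 and 55 of all arms tested. The arms called under either factor were all among the 14. With median-of-ratios factors the slope was more than 1.5 times smaller in 9 of the 14. In each of the 14 alternative fits 8 arms were called, namely Cbr-Mir-22-P2-v1_3p, Cbr-Mir-76_3p, both arms of Mir-231, Cbr-Mir-90-P1_3p, Cbr-Lsy-6_3p, Cbr-Mir-73-P2a_3p and Cbr-Mir-73-P1a_3p.

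A simpler count was made in the same libraries, again between the hours that chose the arms. It asked how often all 4 values of 22 to 25 h exceeded all 4 values of 26 to 29 h. This held for 27.2% of the 313 arms and for 12 of the 22. The ratio of the window means was above 1 in 64.9% of the 313 arms and in 19 of the 22, and the exceptions were Cbr-Mir-67_5p, Cbr-Mir-86_3p* and Cbr-Mir-52-P1_3p*.

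**Figure D2:**
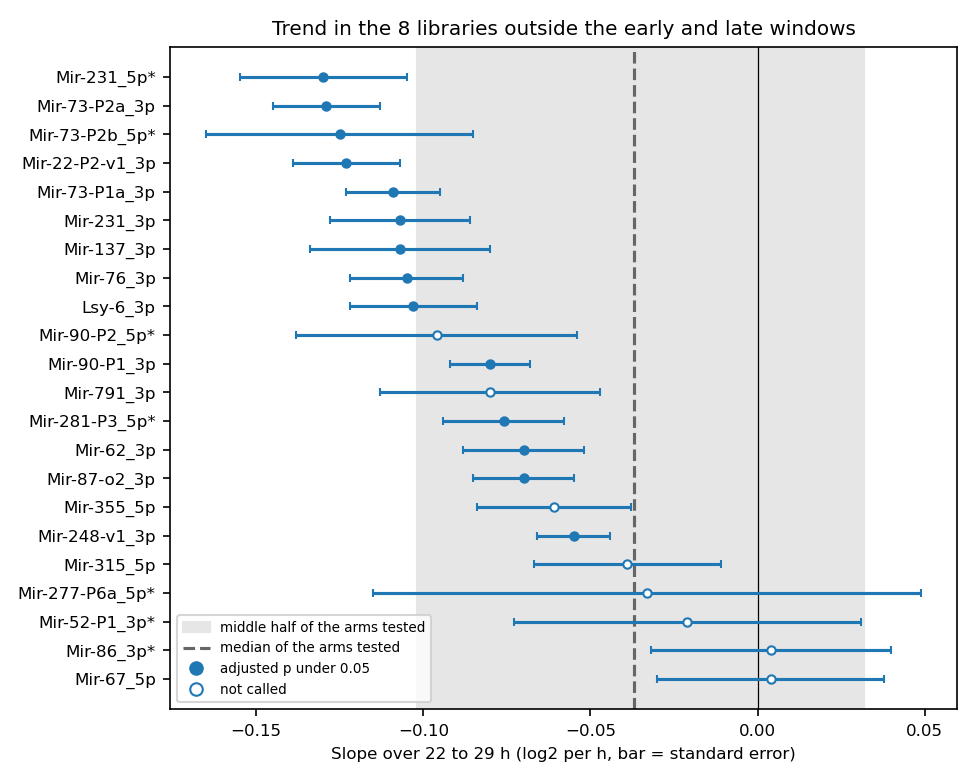
Slope of each of the 22 arms over 22 to 29 h in log2 per hour (horizontal axis), fitted by edgeR to 8 libraries with the library total as library size, with bars of 1 standard error. Filled points had an adjusted p under 0.05, the dashed line is the median of the 313 arms tested at -0.037, and the grey band runs from the lower quartile at -0.102 to the upper quartile at 0.032. Slopes run from -0.130 for Cbr-Mir-231_5p* to 0.004 for Cbr-Mir-86_3p* and Cbr-Mir-67_5p.

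Cbr-Mir-90-P1_3p was by far the most abundant of the falling guides. From 18 to 25 h its scaled counts were 1095026, 894978, 851561, 830709, 761500, 756739, 728962 and 732972. From 26 to 33 h they were 655658, 586465, 607751, 508217, 515686, 539704, 504844 and 498342. The level thus dropped from 18 to 29 h, with the largest single step between 18 and 19 h, and changed little afterwards. This arm held 8.774% of its library at 18 h (Wilson 95% interval 8.759 to 8.789) and 3.993% at 33 h (3.981 to 4.005), where intervals cover counting error only. The 18 h value exceeded the 33 h value 2.2-fold (95% interval from the counts 2.19 to 2.21). Over 22 to 29 h the slope was -0.080 log2 per h (SE 0.012, adjusted p = 0.0024), or -0.043 relative to the median arm.

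Cbr-Mir-248-v1_3p fell almost as evenly, at a lower level. Its scaled counts were 69453, 64968, 66761, 73892, 63757, 57296, 58231 and 52558 from 18 to 25 h and 54496, 52358, 48717, 47044, 44154, 40151, 38156 and 35102 from 26 to 33 h. The early window lay wholly above the late one, and 54.9% of the log2 fall between them had taken place by 26 to 29 h. In the middle hours its slope was -0.055 log2 per h (SE 0.011, adjusted p = 0.0067) and only -0.018 relative to the median arm. The call was lost with TMM factors (adjusted p = 0.18) and with median-of-ratios factors (adjusted p = 0.37).

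Mir-231 was the only hairpin with both arms among the 22. The guide Cbr-Mir-231_3p held between 19223 and 23792 scaled counts until 25 h and then stepped down. Its values were 21994, 22628, 23792, 19223, 20639, 23724, 23111 and 20993 from 18 to 25 h and 17943, 15619, 15635, 14017, 13569, 14409, 13852 and 14083 from 26 to 33 h. Most of the fall lay between 25 and 29 h, and the last hours were nearly level. The passenger Cbr-Mir-231_5p* stood at 597, 511, 590, 391, 431, 450, 476 and 426 from 18 to 25 h and at 386, 314, 264, 260, 176, 256, 221 and 224 from 26 to 33 h. The passenger was lowest at 30 h, 3.38-fold below 18 h (2.81 to 4.10). Over 22 to 29 h the guide fell with a slope of -0.107 log2 per h (SE 0.021, adjusted p = 0.0061) and the passenger with -0.130 (SE 0.025, adjusted p = 0.0066). The slope of their 5p to 3p ratio was -0.021 log2 per h (SE 0.024, adjusted p = 0.62), so no change of the ratio was detected in these hours.

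In *C. elegans*, miR-73 and miR-74 come from one cluster. The *C. briggsae* table names no arm Mir-74 and 12 arms Mir-73, of which 3 are among the 22. Over 22 to 29 h, 2 of the 6 arms on hairpins without a chosen arm were called falling. Of all 12, which include the chosen arms and those opposite them, 8 were called, against 29.4% of all arms, and none rising. Cbr-Mir-73-P1a_3p was the most abundant of these, with scaled counts of 27124, 30376, 35344, 29431, 32202, 32221, 32320 and 28048 from 18 to 25 h and 26195, 24076, 20796, 20483, 19775, 18357, 18699 and 16043 from 26 to 33 h. Cbr-Mir-73-P2a_3p ran at a lower level with 2031, 2427, 2561, 2392, 2522, 2422, 2367 and 2077 from 18 to 25 h and 1952, 1625, 1530, 1422, 1460, 1343, 1338 and 1221 from 26 to 33 h. Both arms kept their early level until 24 h and declined from 25 h onward. In the 22 to 29 h libraries Cbr-Mir-73-P1a_3p had a slope of -0.109 log2 per h (SE 0.014, adjusted p = 0.0011) and Cbr-Mir-73-P2a_3p one of -0.129 (SE 0.016, adjusted p = 0.00088). The third arm, the passenger Cbr-Mir-73-P2b_5p*, was rare. Its scaled counts were 122, 164, 162, 131, 209, 158, 154 and 100 from 18 to 25 h and 120, 123, 87, 121, 112, 78, 78 and 89 from 26 to 33 h, with a high at 22 h. It fell by 0.125 log2 per h (SE 0.040, adjusted p = 0.029), and the adjusted p rose to 0.10 with TMM factors and as far as 0.12, without the 22 h library, when single libraries were left out.

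Cbr-Lsy-6_3p belongs to the lsy-6 family, whose *C. elegans* member is made in the left ASE taste neuron and there represses cog-1. Its scaled counts were 543, 584, 621, 689, 547, 491, 464 and 507 from 18 to 25 h and 401, 364, 342, 344, 321, 282, 259 and 270 from 26 to 33 h. Every value from 26 h onward lay below every value before it. Between 21 h, its highest, and 32 h, its lowest, the difference was 2.66-fold (2.26 to 3.14). Lsy-6 fell in the middle hours at -0.103 log2 per h (SE 0.019, adjusted p = 0.0048), or -0.066 relative to the median arm.

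The arms Cbr-Mir-137_3p and Cbr-Mir-791_3p also carry names known from neurons. Vertebrate miR-137 is enriched in brain, and miR-791 acts in CO2-sensing neurons of *C. elegans*. The scaled counts of Cbr-Mir-137_3p ran from 1015 at 32 h over a median of 1386 to 2698 at 19 h. A drop of 1.61-fold (1.52 to 1.71) from 19 to 20 h was its largest step, and its slope over 22 to 29 h was -0.107 log2 per h (SE 0.027, adjusted p = 0.014). With TMM factors that adjusted p was 0.065, and without the 22 h library the slope was -0.0597 (adjusted p = 0.027). Cbr-Mir-791_3p was among the rarest of the 22, with 126 scaled counts at its lowest at 28 h, a median of 186 and 323 at 19 h. Its slope of -0.080 log2 per h (SE 0.033, adjusted p = 0.086) was called only when the library of 22 h or that of 27 h was left out (adjusted p = 0.05 and 0.042).

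Cbr-Mir-22-P2-v1_3p had the largest ratio of any guide strand, at 2.99. Mammalian miR-22 is known from heart and muscle. The scaled counts were 2309, 2014, 1663, 1468, 1369, 1136, 1104 and 1069 from 18 to 25 h and 914, 825, 768, 754, 658, 607, 652 and 574 from 26 to 33 h. The level dropped at every step but that from 31 to 32 h, where the rise of 1.07-fold (0.948 to 1.22) lay within counting error. The first hour exceeded the last 4.02-fold (3.65 to 4.43), and the slope over 22 to 29 h was -0.123 log2 per h (SE 0.016, adjusted p = 0.001). A second row of this hairpin repeats its counts, and reads that map to several places were kept, so copies cannot be separated here. The second row of the Mir-248 arm differed by at most 4 counts in any library.

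The decline of Cbr-Mir-76_3p took place mostly in the middle hours. Its scaled counts were 3110, 2572, 2905, 2604, 2733, 2551, 2578 and 2411 from 18 to 25 h and 2105, 1796, 1933, 1659, 1791, 1851, 1751 and 1752 from 26 to 33 h. By 26 to 29 h it had completed 89.4% of its log2 fall, the largest share of the 22 arms. The slope was -0.105 log2 per h (SE 0.017, adjusted p = 0.0029). Cbr-Mir-87-o2_3p, with 82.5% done by then, stood at 9482, 8507, 7515, 8983, 7814, 7150, 7241 and 7211 from 18 to 25 h and at 6305, 5696, 5924, 5617, 5568, 5546, 5380 and 5223 from 26 to 33 h. It fell by 0.070 log2 per h (SE 0.015, adjusted p = 0.0083), and with median-of-ratios factors its adjusted p was 0.10.

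In *C. elegans*, miR-62 is a mirtron, cut from its host intron by splicing in place of Drosha. Cbr-Mir-62_3p had scaled counts of 1813, 2073, 2214, 2080, 1910, 1986, 2012 and 1661 from 18 to 25 h and 1635, 1482, 1558, 1453, 1396, 1274, 1291 and 1277 from 26 to 33 h. The last 3 hours were nearly level. Its slope of -0.070 log2 per h (SE 0.018, adjusted p = 0.015) lost the call with TMM factors (adjusted p = 0.085) and without the 29 h library (adjusted p = 0.055). Cbr-Mir-355_5p ranged from 1268 scaled counts at 31 h over a median of 2034 to 2524 at 20 h. It missed the threshold with a slope of -0.061 log2 per h (SE 0.023, adjusted p = 0.063), while DESeq2 gave an adjusted p of 0.031 and edgeR without the 22 h library 0.032. No count of the Mir-355 partner arm was recorded in any library.

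Cbr-Mir-315_5p fell late, with its lowest values from 30 h onward apart from a low at 21 h. In *Drosophila*, miR-315 activates Wingless signalling. The arm had 828 scaled counts at its lowest at 33 h, a median of 1678 and 2346 at 23 h. A low of 1140 at 21 h, in the library that stood apart, was followed by the high at 23 h, 2.06-fold above it (1.91 to 2.22). The slope over 22 to 29 h of -0.039 log2 per h (SE 0.028, adjusted p = 0.29) was close to that of the median arm, and without the 22 h library it was called at -0.0777 (adjusted p = 0.018). Without the 33 h library its early to late ratio was below 1.5.

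Passenger strands included the largest fall of all. In *C. elegans*, miR-52 belongs to the miR-51 family, which is needed in embryos. The scaled counts of Cbr-Mir-52-P1_3p* from 18 to 25 h were 85763, 108808, 125747, 145286, 87541, 66249, 81336 and 95568. From 26 to 33 h they were 117979, 102593, 80091, 52539, 31147, 25813, 24961 and 25011. The arm thus had highs at 21 and 26 h, a low between them at 23 h and a steep decline from 28 to 31 h, after which it stayed level. Relative to 23 h, the highs were 2.19-fold (2.17 to 2.21) and 1.78-fold (1.77 to 1.80) larger. From 21 to 32 h the difference was 5.82-fold (5.73 to 5.91), and the largest single step was the 1.69-fold drop (1.66 to 1.71) from 29 to 30 h. Already at 20 h, outside the library that stood apart, the level was 125747.

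Cbr-Mir-86_3p* followed nearly the same course at a lower level. Its scaled counts were 18055, 21181, 25246, 27333, 26614, 19797, 18522 and 22256 from 18 to 25 h and 24646, 27914, 26077, 18427, 12692, 12400, 11669 and 11281 from 26 to 33 h. Highs at 21 and 27 h stood 1.48-fold (1.45 to 1.5) and 1.51-fold (1.48 to 1.53) above the low at 24 h. The largest one-hour fall was again that from 29 to 30 h, at 1.45-fold (1.42 to 1.49). Neither passenger was called over 22 to 29 h, hours that hold a low, a high and the start of the last decline. The slopes were -0.021 log2 per h (SE 0.052, adjusted p = 0.81) for Cbr-Mir-52-P1_3p* and 0.004 (SE 0.036, adjusted p = 0.94) for Cbr-Mir-86_3p*. Their means over 26 to 29 h, 88300 and 24266, were above those over 22 to 25 h, 82674 and 21797.

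Cbr-Mir-67_5p had a similar outline. The *C. elegans* miR-67 sequence is widely used as a control without targets in mammalian cells. Neither arm of this hairpin carries an asterisk, and the 3p arm was the more abundant by 7.38-fold on average. Scaled counts of the 5p arm were 586, 680, 864, 715, 567, 609, 640 and 696 from 18 to 25 h and 786, 700, 703, 480, 426, 445, 470 and 430 from 26 to 33 h. The highs at 20 and 26 h were 1.52-fold (1.38 to 1.68) and 1.39-fold (1.25 to 1.54) above the low at 22 h, and the step down from 28 to 29 h was 1.46-fold (1.29 to 1.66). Without the 20 h library its early to late ratio was below 1.5. The slope over the middle hours was 0.004 log2 per h (SE 0.034, adjusted p = 0.93).

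Of the other passenger strands, 1 was abundant and the rest were rare. Cbr-Mir-281-P3_5p* was abundant, with 23977, 25747, 25151, 26231, 24017, 21833, 22178 and 24435 scaled counts from 18 to 25 h and 20871, 18625, 17313, 16686, 15501, 15663, 14639 and 16165 from 26 to 33 h. It held its level until 25 h and fell in the middle hours at -0.076 log2 per h (SE 0.018, adjusted p = 0.013). That adjusted p was 0.058 with median-of-ratios factors and 0.068 without the 29 h library. Cbr-Mir-90-P2_5p* had 403, 326, 371, 245, 245, 320, 317 and 351 scaled counts from 18 to 25 h and 322, 230, 210, 177, 142, 143, 148 and 119 from 26 to 33 h. A high at 25 h stood 1.43-fold (1.22 to 1.68) above the low at 22 h. This arm lost most of its level after 26 h, and its slope of -0.096 log2 per h (SE 0.042, adjusted p = 0.12) was called only without the 22 h library (adjusted p = 0.013).

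Cbr-Mir-277-P6a_5p* entered the set by the smallest margin and was the least regular arm. The *Drosophila* miR-277 controls branched-chain amino acid catabolism. Its scaled counts were 646, 149, 349, 47, 118, 393, 254 and 411 from 18 to 25 h and 282, 188, 236, 215, 140, 250, 194 and 187 from 26 to 33 h. Its highest and lowest hours, 18 and 21 h, differed 13.7-fold (9.91 to 19.6). The lowest rests on 38 counted reads and lies in the library that stood apart. Without the 18 h library, the 20 h library or the 30 h library the ratio fell below 1.5, and the slope of -0.033 log2 per h (SE 0.082, adjusted p = 0.81) was not called. The rarer paralogue Cbr-Mir-277-P6b_5p* had a like course, with 261, 50, 139, 25, 45, 129, 103 and 180 scaled counts from 18 to 25 h.

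The values near the 1.5-fold limit were continuous across it. Just inside were Cbr-Mir-277-P6a_5p* at 1.54, Cbr-Mir-62_3p at 1.56 and Cbr-Mir-76_3p at 1.57. Just outside were Cbr-Mir-277-P6b_3p at 1.49, Cbr-Mir-31_3p* at 1.47 and Cbr-Mir-277-P6a_3p at 1.45. Cbr-Mir-277-P6b_3p stood at 1156, 1252, 1266, 1309, 1161, 1204, 1375 and 1116 from 18 to 25 h and 968, 899, 900, 811, 877, 827, 825 and 816 from 26 to 33 h. Cbr-Mir-31_3p* stood at 3986, 3018, 2785, 3217, 3534, 3702, 4018 and 2981 from 18 to 25 h and 2366, 1922, 2165, 2562, 2559, 2120, 2152 and 2032 from 26 to 33 h. Cbr-Mir-277-P6a_3p stood at 3308, 3396, 3612, 3536, 3355, 3411, 3757 and 3224 from 18 to 25 h and 2941, 2450, 2740, 2485, 2484, 2336, 2525 and 2182 from 26 to 33 h. All 3 were lower throughout 30 to 33 h than at 22 to 24 h.

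Repeated highs were tested with cosine and sine terms at a 7 h period over the 16 libraries, beside a linear term and a term that took up the contrast of the early and late windows. By this test 0.965% of 311 arms were called rhythmic. None of the 22 was called by edgeR, by DESeq2 or by limma. At an unadjusted p under 0.05, edgeR gave 1 of the 22 and 47 of all arms. That arm was Cbr-Mir-86_3p*, with an amplitude of 0.37 log2 (SE 0.14, adjusted p = 0.31). Cbr-Mir-52-P1_3p* had the same amplitude with a larger error (SE 0.23, adjusted p = 0.72). The calls depended on the trend terms. With a quadratic term added, edgeR called 29 of all arms, 3 of them among the 22. Cbr-Mir-52-P1_3p* then had an amplitude of 0.41 log2 (SE 0.059, adjusted p = 0.0017) and Cbr-Mir-86_3p* 0.33 (SE 0.062, adjusted p = 0.01). The third was Cbr-Mir-90-P2_5p* at 0.30 (SE 0.07, adjusted p = 0.039).

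The opposite arm of each hairpin shows whether both products of a precursor moved. In the hairpins whose passenger was chosen, the guide had the smaller early to late ratio. The guide Cbr-Mir-52-P1_5p had an early to late ratio of 1.04 against 4.35 for its passenger, and lay between 97071 scaled counts at 21 h and 164852 at 19 h. Per count of guide there were 0.83 counts of passenger in 18 to 21 h, 0.574 in 22 to 25 h, 0.597 in 26 to 29 h and 0.198 in 30 to 33 h. The early value includes the 21 h library that stood apart, where the guide was lowest and the passenger highest, at 145286. For Cbr-Mir-86_5p the ratio was 1.12 against 1.91, and 0.678 passengers per guide in the early window became 0.399 in the late one. The other chosen passengers included Cbr-Mir-90-P2_5p* at 2.44 against 1.26, Cbr-Mir-231_5p* at 2.38 against 1.57 and Cbr-Mir-281-P3_5p* at 1.63 against 1.43. The last were Cbr-Mir-73-P2b_5p* at 1.62 against 1.28 and Cbr-Mir-277-P6a_5p* at 1.54 against 1.45, where the arms differed least. All these passengers were chosen for a large fall and, of their guides, only Cbr-Mir-231_3p was, so the order within a pair is a description.

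In the Mir-67 hairpin the early to late ratios lay on either side of 1, at 1.61 for 5p and 0.89 for 3p. Per count of 5p there were 5.5 counts of 3p in the early window and 9.92 in the late one. In Mir-73-P2a, where neither arm carries an asterisk, the chosen 3p arm fell 1.76-fold and the more abundant 5p arm 1.30-fold. Arms opposite the chosen guides were mostly rare, with fewer than 100 counts on average for Cbr-Mir-90-P1_5p*, Cbr-Mir-76_5p*, Cbr-Mir-73-P1a_5p*, Cbr-Mir-315_3p* and Cbr-Mir-87-o2_5p*. Of the 20 opposite arms, 14 could be tested over 22 to 29 h, where 7 were called falling, against 29.4% of all arms, and none was called rising.

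**Figure D3:**
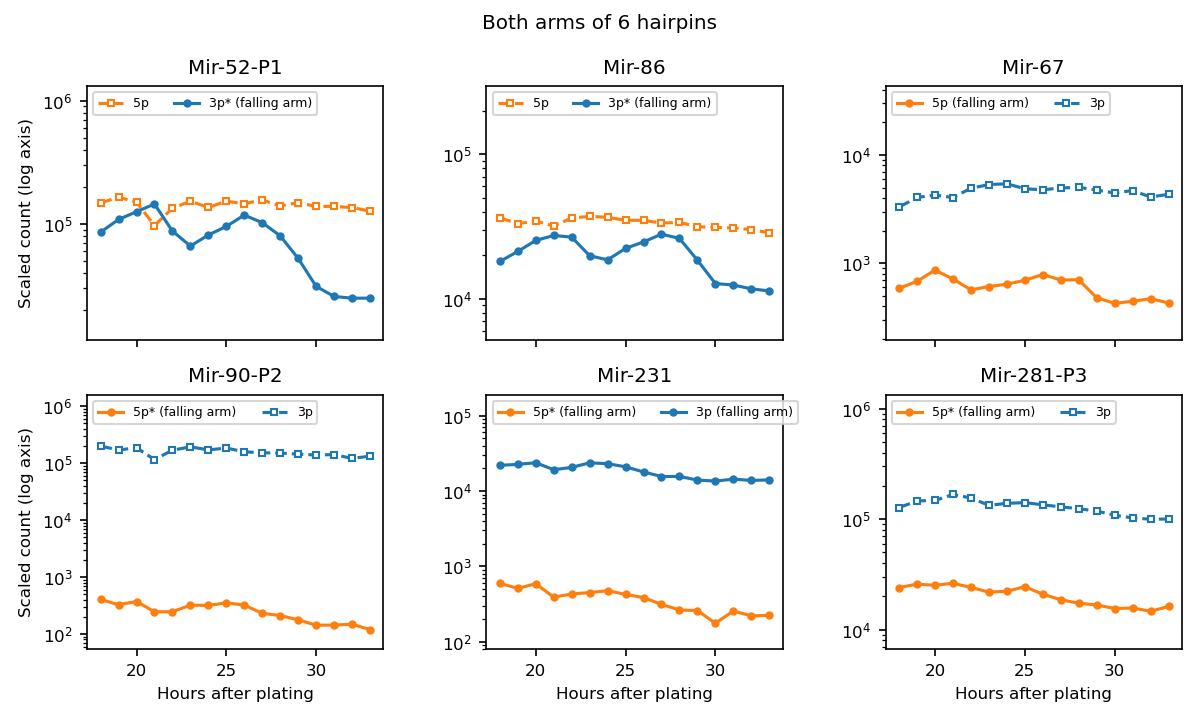
Scaled counts (log axis) of the 5p (orange) and 3p (blue) arms of 6 hairpins against hours after plating, 1 library per point, with filled circles for the arms chosen for their fall and open squares for the opposite arm. The guide Cbr-Mir-52-P1_5p stays between 97071 and 164852 while its passenger drops from 145286 at 21 h to 24961 at 32 h.

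A change of the 5p to 3p ratio was tested with limma over the 22 to 29 h libraries for 129 hairpins, of which 6.2% were called. Among the 15 tested hairpins that hold a chosen arm, limma called 0, and 1 had an unadjusted p under 0.05. This was Mir-73-P2a, whose ratio had a slope of 0.061 log2 per h (SE 0.022, adjusted p = 0.15). In Mir-52-P1 and Mir-86 the passenger lost ground to the guide mainly between 26 to 29 h and 30 to 33 h, and the slopes of the 5p to 3p ratio over the middle hours were 0.041 (SE 0.055, adjusted p = 0.68) and -0.032 (SE 0.040, adjusted p = 0.68).

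Paralogues of the chosen arms did not all follow them. Ratios of arms from the same side and family were tested for 660 pairs with limma over 22 to 29 h, and 27.1% were called. Among the 19 pairs with a chosen arm 6 were called, or 31.6%, which is near that background. All 6 were in the Mir-73 family. Cbr-Mir-73-P3b_3p ranged from 267 scaled counts at 18 h to 502 at 21 h, and its means over the early and late windows, 394 and 375, were close. Over 22 to 29 h it gained on Cbr-Mir-73-P2a_3p by 0.130 log2 per h (SE 0.019, adjusted p = 0.015) and on Cbr-Mir-73-P1a_3p by 0.110 (SE 0.020, adjusted p = 0.018).

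Cbr-Mir-73-P3a_3p had 10651 scaled counts at 18 h, 11867 at 28 h and 24372 at 33 h, and its early to late ratio was 0.70. It gained on Cbr-Mir-73-P2a_3p by 0.117 log2 per h (SE 0.029, adjusted p = 0.025) and on Cbr-Mir-73-P1a_3p by 0.098 (SE 0.028, adjusted p = 0.040). The third relative, Cbr-Mir-73-P1b_3p, gained 0.066 log2 per h on Cbr-Mir-73-P2a_3p (SE 0.016, adjusted p = 0.023) while its slope relative to Cbr-Mir-73-P1a_3p, 0.047, was not called (SE 0.016, adjusted p = 0.068). Of the passengers, Cbr-Mir-73-P3a_5p* gained on Cbr-Mir-73-P2b_5p* by 0.166 log2 per h (SE 0.029, adjusted p = 0.017). Outside the second copies of Mir-22 and Mir-248, no arm lay within 0.1 log2 of a chosen arm in every library, so these paralogues were counted as separate series.

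**Figure D4:**
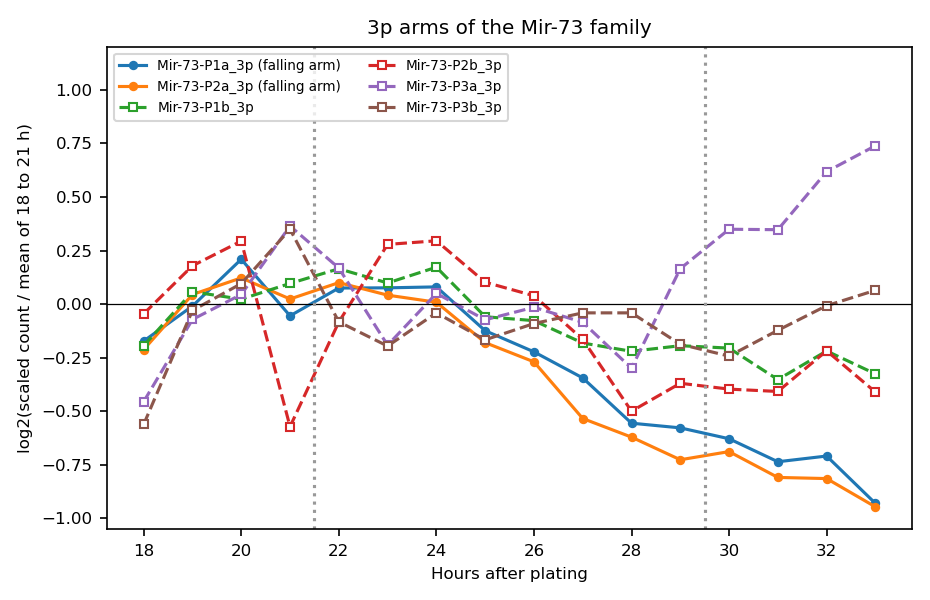
Scaled counts of the 3p arms of the 6 Mir-73 hairpins as the log2 ratio to each arm's mean over 18 to 21 h (vertical axis) against hours after plating, with 1 library per point and filled circles for the chosen arms. Dotted lines bound 22 to 29 h. Cbr-Mir-73-P1a_3p and Cbr-Mir-73-P2a_3p end lowest, at 16043 and 1221 scaled counts at 33 h, while Cbr-Mir-73-P3a_3p ends highest at 24372.

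Outside the Mir-73 family no pair was called. Cbr-Mir-87-o1_3p had an early to late ratio of 1.02 against 1.59 for Cbr-Mir-87-o2_3p, and the slope of their ratio was 0.042 log2 per h (SE 0.017, adjusted p = 0.098). Cbr-Mir-90-P1_3p and Cbr-Mir-90-P2_3p, at ratios of 1.78 and 1.26, differed in slope by -0.031 (SE 0.017, adjusted p = 0.21). The passengers Cbr-Mir-281-P3_5p* and Cbr-Mir-281-P4_5p* differed by -0.042 (SE 0.025, adjusted p = 0.25). Of the 6 relatives in these families that are not on a chosen hairpin, edgeR called 1 falling over 22 to 29 h, Cbr-Mir-277-P6b_3p, against 29.4% of all arms, and of the 6 in the Mir-73 family it called 2.

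Apart from the cluster of Mir-73, the *C. elegans* clusters looked up by name held no chosen arm, and none of their tested arms was called falling. Of Mir-64, 8 arms were tested, and of Mir-357 and Mir-358, 4 arms, with none called in either direction by edgeR. Of 3 tested arms of Mir-785, 1 was called rising. Mir-65, Mir-66, Mir-229, Mir-359, Mir-42, Mir-43, Mir-44, Mir-61 and Mir-250 matched no row by name. Clusters were matched by number only, and their arrangement in the *C. briggsae* genome was not used here.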

How the data were processed

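Whole-worm RNA was extracted with Tri Reagent and turned into TruSeq small RNA libraries. The authors trimmed the adapter, mapped reads with QuasR and Bowtie (versions not given in the sources used here), keeping reads with at most 100 hits, and took as counts the sense reads starting within 3 bp of each annotated 5′ end. The deposited values are these counts, not normalized, and the authors' log2 of the count scaled to the mean library total plus a pseudocount of 8. Recomputing the deposited log2 values gave a largest difference of 0.0005. For assembly and annotation, WS225 and MirGeneDB stand in the study's methods but ce10 in the submitters' processing notes. No sequences or coordinates were used here.

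Arms with at least 10 counts in 4 of 8 (22 to 29 h) or 8 of 16 libraries were tested with edgeR 4.0.16 (glmQLFit, glmQLFTest; R 4.3.3), with the library total as library size and Benjamini-Hochberg adjustment over all arms tested, at a threshold of 0.05. DESeq2 1.42.0 and limma 3.58.1 (on log2 values with a pseudocount of 8 or 1), TMM and median-of-ratios factors, no filter, other periods and trend terms, and leaving out each library were alternatives. Ratios of arms were fitted with limma on log2(scaled count + 8). These ratio tests and the window count were added after the values had been seen. Ratios between hours have 95% intervals from the counts. The fits were tested on simulated data. The members and lists were chosen with earlier results of these data known.

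Values by hour are printed for the 10 most abundant of the 22 arms, the 5 largest ratios, the 5 steepest called falls, arms with a positive slope, hairpins with both arms chosen, and the 3 arms on either side of the 1.5-fold limit. Other arms are given by range.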

Additional observations from a re-analysis of the deposited data

How the results depend on the processing

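The 14 arms called falling over 22 to 29 h became 8 with median-of-ratios factors, and between 12 (29 h left out) and 17 (22 h left out) when single libraries were left out. The 22 arms that met the rule became 13 with TMM factors, 9 with median-of-ratios factors and 21 to 24 when single libraries were left out. The 0 arms rhythmic at 7 h became 3 with a quadratic term added beside the contrast term (29 of all 311 arms were then called). These were Cbr-Mir-52-P1_3p*, Cbr-Mir-86_3p* and Cbr-Mir-90-P2_5p*. Like the reported fit, this one included the early and late libraries by which the arms were chosen. The count of rhythmic arms among the 22 stayed 0 in the 25 other alternatives, among them each left-out library (0 to 0). The cause of these changes was not tested.

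Over all arms tested, 92 were falling in the reported fit, 58 with TMM factors, 55 with median-of-ratios factors, and 45 (29 h) to 121 (22 h) with a library left out. The 3 arms rhythmic at 7 h became 12 with TMM factors, 8 with median-of-ratios factors, 23 with DESeq2, 6 with limma at either pseudocount, 5 at a period of 8 h, 23 with a linear term alone, 29 with a quadratic term, 1 without the filter, and 0 (22 h) to 20 (18 h) with a library left out.

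Of 308 recomputed slopes of the 22 arms, 266 kept direction and call, 16 lost the call, 7 gained it and 19 changed sign, the latter all for 4 arms that were not called. Cbr-Mir-52-P1_3p* had 0.0081 log2 per h with TMM factors and 0.0136 with median-of-ratios factors, and -0.0209 as reported. Cbr-Mir-277-P6a_5p* had 0.0004 and 0.0094 with these factors, and 0.0051 and 0.0065 with limma at pseudocounts of 8 and 1. Cbr-Mir-67_5p had -0.0011 with limma at both pseudocounts. With single libraries left out, the slope ranged from -0.0548 to 0.0526 for Cbr-Mir-52-P1_3p*, from -0.1451 to 0.0367 for Cbr-Mir-277-P6a_5p*, from -0.0222 to 0.0587 for Cbr-Mir-67_5p and from -0.0123 to 0.0423 for Cbr-Mir-86_3p*.

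No paired analysis was possible because each hour has 1 library and the labels give no replicate numbers that could pair hours. The depth limits the rarest arms, since 7 of the 22 had a mean count under 1000.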
